A study of Mus musculus with 4 samples.

Results

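The genes described here are 9 genes that adult microglia express in the resting state: P2ry12, P2ry13, Tmem119, Siglech, Cx3cr1, Sall1, Selplg, Gpr34 and Slco2b1. They were taken by symbol from the 40091 genes listed over 4 single-nucleus RNA sequencing (snRNA-seq) libraries of mouse thalamus, and all 9 were found in every library. The mice were C57BL6 wild-type animals of 7 to 8 weeks that received either saline (NS) or collagenase IV (Coll IV, 0.01 U per 10 nl), an enzyme that opens vessel walls and causes a bleed (COL), in the right thalamus, and tissue was taken on day 7. Each group had 2 libraries, and each library pooled nuclei of 3 mice, so the error given for a group is the spread between 2 pools and not between mice. No transgene, deletion or drug was carried by either group, and the question asked of these genes is how their RNA in microglia, and in the cells around them, differs between COL and NS.

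Microglia are the resident phagocytes of the brain. In undisturbed tissue they survey their surroundings with motile processes, and this state is marked by receptors that read signals of neighbouring cells: P2ry12 and P2ry13 sense ADP leaking from damaged cells, Cx3cr1 binds the fractalkine (Cx3cl1) displayed by neurons, and Gpr34 binds lysophosphatidylserine. The programme is maintained by transcription factors, among them Sall1, and by transforming growth factor beta (TGF-beta), and microglia that respond to injury are known to lower several of these genes.

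By the GENCODE annotation of the GRCm38 (mm10) assembly, the 9 genes are protein coding and lie on 6 chromosomes. P2ry12 is at chromosome 3, 59216272 to 59262871, and P2ry13 is its neighbour at 59207892 to 59210882; both are on the minus strand, and both lie wholly inside Med12l, a Mediator subunit gene of the plus strand. Gpr34, at chromosome X, 13632089 to 13640858, lies wholly inside Cask on the opposite strand. Tmem119 (113793729 to 113800516) and Selplg (113818536 to 113832644) are neighbours on chromosome 5, Siglech (55768178 to 55778925) and Slco2b1 (99657804 to 99711340) are on chromosome 7, Sall1 (89027235 to 89044162) is on chromosome 8 and Cx3cr1 (119901616 to 120069879) is on chromosome 9. Slco2b1 overlaps the antisense genes Gm34280 and Gm15635 over 31.8% and 13.8% of its length. Cx3cr1 overlaps 9 genes, among them Gorasp1, Csrnp1 and Xirp1 on its own strand, over 7.32%, 8.02% and 5.85% of its length, which strand would not tell apart. In microglia the highest of the 9 was Wdr48, on the opposite strand, with 31.0 to 41.7 CPM. Whether strand was used in counting is not given in the sources used here, and without strand the reads of these genes cannot be told apart from those of the genes they overlap.

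The RefSeq promoter table held entries for 6 of the 9 genes. The 250 bases before the start site are shown for P2ry12 and P2ry13, because they are neighbours that fell together in the results below, and for Siglech, because it is the member with a searched motif in that stretch. All are read 5′ to 3′ on the strand of the gene (GRCm38.p6): P2ry12 at chr3:59262986-59263235, minus strand; P2ry13 at chr3:59210883-59211132, minus strand; Siglech at chr7:55767934-55768183, plus strand. Capitals mark the searched motif, here the SMAD motif CAGACA read on the other strand.
P2ry12: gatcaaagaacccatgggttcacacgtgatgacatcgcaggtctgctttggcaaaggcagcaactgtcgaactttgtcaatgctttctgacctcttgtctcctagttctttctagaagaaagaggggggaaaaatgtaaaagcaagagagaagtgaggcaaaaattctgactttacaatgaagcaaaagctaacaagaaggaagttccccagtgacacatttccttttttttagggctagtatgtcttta
P2ry13: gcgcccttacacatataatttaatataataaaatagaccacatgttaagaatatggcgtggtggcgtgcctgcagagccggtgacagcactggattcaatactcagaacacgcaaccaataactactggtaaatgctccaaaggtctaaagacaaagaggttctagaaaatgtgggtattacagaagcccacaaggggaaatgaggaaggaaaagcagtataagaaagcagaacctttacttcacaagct
Siglech: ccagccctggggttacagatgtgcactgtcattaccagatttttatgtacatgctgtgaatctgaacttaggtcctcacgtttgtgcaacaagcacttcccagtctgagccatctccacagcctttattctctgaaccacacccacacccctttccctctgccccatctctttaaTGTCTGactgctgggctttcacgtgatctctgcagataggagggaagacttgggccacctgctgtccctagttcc
Over the 300-base windows of the table, which run 50 bases past the start, CAGACA was found on either strand in 21.0% of all 32851 promoters, the PU.1 motif GAGGAAGT in 3.20% and the MEF2 motif TAAAAATA in 2.72%. Slco2b1 held GAGGAAGT past its start site and, at another start, CAGACA. The other matched members held none of these letters in their windows.

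The libraries held 9673 and 10422 nuclei in NS and 5931 and 6265 nuclei in COL, with between 68723738 and 77546840 UMIs (unique molecular identifiers, each counting 1 captured RNA molecule) per library in these nuclei, and any pair of libraries shared between 8 and 31 cell barcodes. Microglia were named from 13 other marker genes, such as Csf1r and C1qa, and the 9 genes were kept out of the genes used to cluster the nuclei. NS microglia lay almost wholly in cluster 13, and COL microglia in cluster 11 and in the dividing cluster 23, so the groups were compared over the class and not within a cluster. The class had 321 and 344 nuclei in NS and 373 and 551 in COL, or 3.31% ± 0.0126 against 7.54% ± 1.77 of nuclei (mean ± SD, n = 2 libraries; two-sided exact permutation p = 0.333, the smallest that 2 against 2 libraries allow). The summed level of the 13 markers in microglia was 8548 and 8520 CPM (a level relative to all UMIs of the nuclei summed, scaled to the same total in every library and type) in NS and 8122 and 7810 CPM in COL, and of the 13 markers 4 were called lower and 2 higher by the test given below.

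Relative to the other RNA of the same nuclei, the resting-state genes were lower in COL microglia. All 9 had both COL libraries below both NS libraries and passed the test (edgeR's quasi-likelihood test on UMI sums, adjusted p under 0.05 over 12078 genes), and none was higher. By the same test 14.4% of all genes tested were lower and 28.7% differed in either direction, and 35.9% of all genes had both COL libraries below both NS libraries. The median log2 fold change was -1.20 over the 9 genes and -0.0035 over all genes tested. This holds relative to total UMIs: as given further below, the UMIs per nucleus of Cx3cr1, Sall1 and Slco2b1 were higher in COL.

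The G protein-coupled receptors for nucleotides and lipids included the member with the largest difference. Gpr34, the lysophosphatidylserine receptor, had 334 and 376 CPM in the NS libraries and 126 and 106 CPM in the COL libraries, a log2 fold change of -1.57 ± 0.168 (SE, 2 libraries per group; edgeR adjusted p = 5.5e-05). P2ry12, the ADP receptor that steers microglial processes towards injury, had 1128 and 891 CPM in NS and 446 and 427 CPM in COL. Its log2 fold change was -1.16 ± 0.152 (edgeR adjusted p = 0.000192), that is, a level 55.3% lower. P2ry13, another ADP receptor, rested on few molecules, between 21 and 36 UMIs in each library, and had 48.5 and 29.2 CPM in NS against 16.7 and 11.9 CPM in COL. Its log2 fold change of -1.43 carried the widest error of the 9, 0.353 (SE; edgeR adjusted p = 0.00955), and it did not pass with DESeq2 (adjusted p = 0.0652) or without NS replicate 1 (edgeR adjusted p = 0.147). Med12l and Cask, which overlap these receptor genes, were also lower: Med12l had 355 and 318 CPM in NS microglia and 164 and 160 CPM in COL microglia, and Cask had 366 and 407 CPM against 228 and 210 CPM.

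The fractalkine receptor Cx3cr1 had a smaller log2 fold change than the receptors above. It had 847 and 827 CPM in NS and 493 and 529 CPM in COL, with a log2 fold change of -0.66 ± 0.139 (edgeR adjusted p = 0.00369). The groups did not overlap, but the call was lost without NS replicate 2 (edgeR adjusted p = 0.108) and with each nucleus named by its own marker score (log2 fold change -0.44, adjusted p = 0.0839).

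Among the surface proteins, Siglech, a sialic acid-binding lectin, had 1149 and 1042 CPM in NS and 512 and 408 CPM in COL (log2 fold change -1.20 ± 0.157, edgeR adjusted p = 0.00019). Selplg, the ligand of P-selectin that leukocytes in general carry, had 675 and 806 CPM in NS and 323 and 265 CPM in COL (log2 fold change -1.29 ± 0.166, edgeR adjusted p = 0.000178). Tmem119, a membrane protein widely used as a microglial marker, had 141 and 118 CPM in NS and 56.9 and 42.6 CPM in COL (log2 fold change -1.35 ± 0.218, edgeR adjusted p = 0.000749). In these 3 genes the lower NS library was above the higher COL library by more than the gap between replicates.

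The transporter and the transcription factor were, with Cx3cr1, the members with the smallest differences. Slco2b1, an organic anion transporter, had 774 and 895 CPM in NS and 495 and 513 CPM in COL (log2 fold change -0.68 ± 0.147, edgeR adjusted p = 0.00449), and its adjusted p was 0.195 without NS replicate 2 and 0.091 with the marker score of each nucleus. Sall1, a zinc finger factor that keeps microglial identity, had 226 and 219 CPM in NS and 164 and 135 CPM in COL (log2 fold change -0.53 ± 0.169, edgeR adjusted p = 0.0321). The Sall1 call was the least secure of the 9: it was lost in 10 of the 20 other ways of processing tried, among them DESeq2 (adjusted p = 0.197), and its decrease ranged from -0.16 to -1.29 on the log2 scale. The antisense genes over Slco2b1 were low and also lower in COL, with 101 and 107 CPM in NS and 9.77 and 28.7 CPM in COL for Gm34280.

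**Figure D1:**
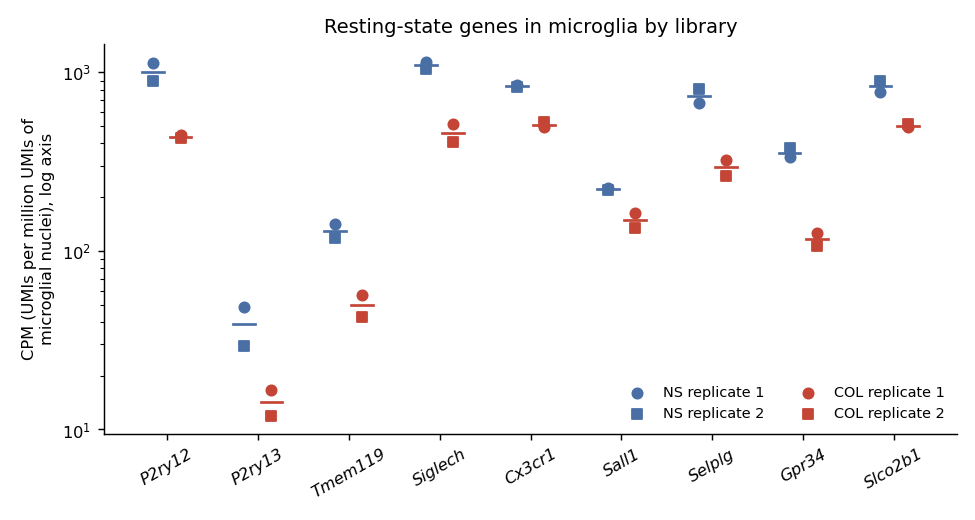
CPM of the 9 resting-state genes in microglia (vertical log axis) for the 4 libraries, with NS in blue, COL in red, circles for replicate 1, squares for replicate 2 and a bar at the group mean. On this scale, relative to all UMIs, both COL points lie below both NS points in each gene. The figure is meant for comparing libraries within a gene and not levels between genes.

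The difference depends on what the UMIs are divided by. Microglial nuclei held 2314 and 2088 UMIs on average in NS and 4665 and 5194 UMIs in COL, a ratio of 2.24, while the ratio was 1.54 in neurons, 1.85 in oligodendrocytes and 1.85 in astrocytes. Counted per nucleus, P2ry12 had 2.61 and 1.86 UMIs in NS and 2.08 and 2.22 UMIs in COL, so that the groups overlapped. Gpr34 had 0.773 and 0.785 UMIs per nucleus in NS and 0.59 and 0.552 in COL. Cx3cr1 had 2.0 and 1.7 UMIs per nucleus in NS and 2.3 and 2.75 in COL. Fitted per nucleus with edgeR, the median over all genes tested rose to 1.11 on the log2 scale, and the 9 genes lay between -0.45 and 0.58, all below that median. On that scale Gpr34 was lower (log2 fold change -0.45, edgeR adjusted p = 0.0363), and Cx3cr1 (log2 fold change 0.45, edgeR adjusted p = 0.0256), Sall1 (0.58, adjusted p = 0.0127) and Slco2b1 (0.44, adjusted p = 0.0249) were higher, and the other 5 did not pass. Of all 12078 genes tested on that scale 195 were lower and 7575 higher. Relative to the UMIs of the 13 microglial markers, some of which differed themselves, the 9 genes were again lower with an edgeR adjusted p under the threshold, between -0.48 for Sall1 and -1.52 for Gpr34. Of all 12078 genes tested in that fit 1420 were lower. This fit and the per-nucleus fit were chosen after seeing the data. The authors report more sequencing reads per nucleus in both COL libraries than in both NS libraries. Deeper sequencing, more RNA captured per nucleus and more RNA held by a nucleus cannot be told apart in these libraries.

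**Figure D2:**
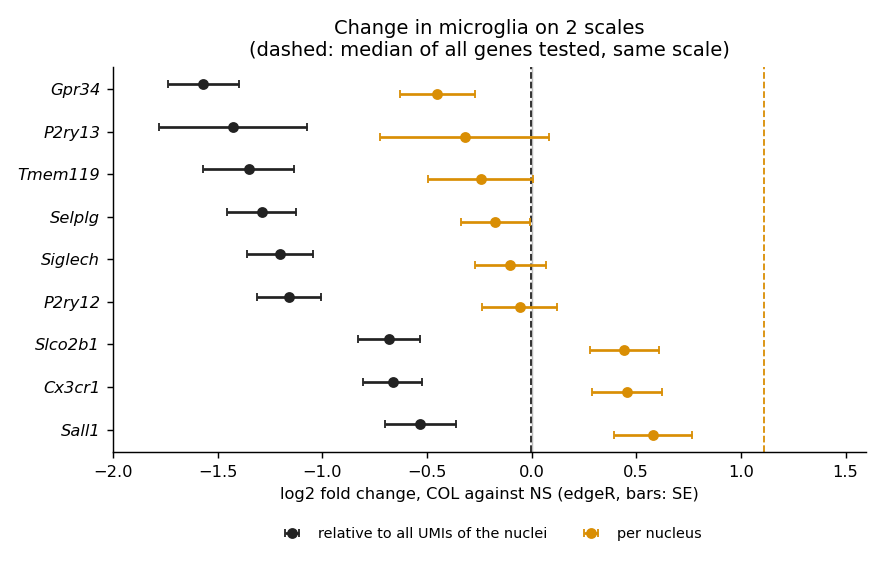
Log2 fold change of each gene in microglia, COL against NS (horizontal axis, points with SE from edgeR), relative to all UMIs in black and per nucleus in orange, with the median of all genes tested on each scale as a dashed line. Black points lie between -1.57 and -0.53 around a median near 0, and orange points between -0.45 and 0.58, left of a median of 1.11.

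At an equal depth of 1000 UMIs, drawn at random from each nucleus, at most 2 microglial nuclei of a library were too shallow to be used. Of the 9 genes, a microglial nucleus then showed 3.44 and 3.41 on average in the NS libraries and 2.05 and 2.06 in the COL libraries, a gap far wider than that between replicates. Nuclei that showed none made up 0.94% and 0.292% of NS microglia and 15.1% and 12% of COL microglia, and nuclei with 3 or more made up 76.8% and 74.0% against 36.1% and 34.8%. The 2-against-2 design allows no permutation p under 0.333 for such shares. P2ry12 was seen in 61.5% ± 8.80 of NS microglia and 31.6% ± 0.0301 of COL microglia (mean ± SD, n = 2 libraries), Siglech in 63.1% ± 1.18 and 36.8% ± 0.508, Gpr34 in 30.1% ± 0.873 and 10.1% ± 0.951, and Sall1 in 17.1% ± 0.2 and 14.9% ± 0.488. At 2000 UMIs, with 199 and 171 NS nuclei and 366 and 544 COL nuclei deep enough, each of the 9 genes was again seen less often in COL on average, and the gap of Sall1 was wider, with 35.8% ± 2.67 in NS and 25.9% ± 3.13 in COL. P2ry13 was seen in 7.62% ± 4.15 and 3.43% ± 1.72 at that depth and in 3.67% ± 1.46 and 1.40% ± 0.693 at 1000 UMIs. Without thinning, the difference was smaller or turned its sign: P2ry12 was found in 77.9% and 71.0% of nuclei, and Cx3cr1 in 79.3% and 83.9%, at a median depth that differed between the groups.

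**Figure D3:**
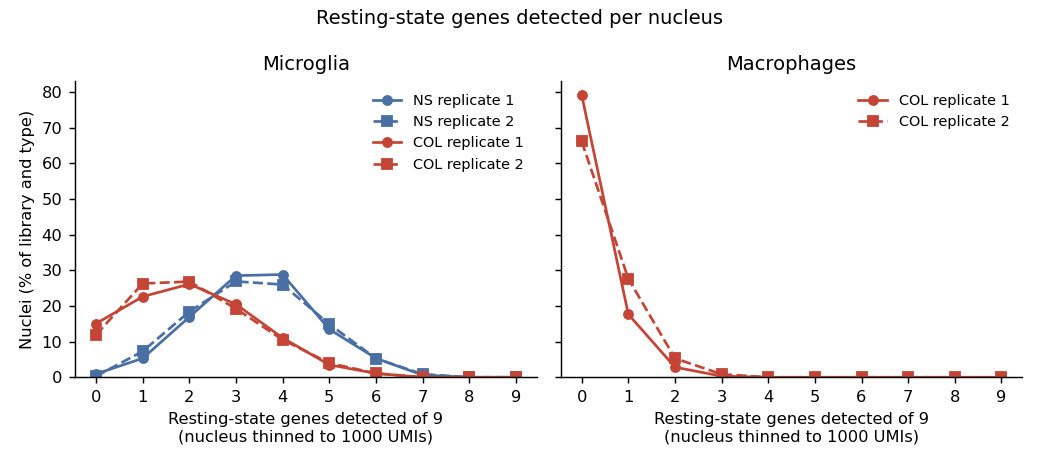
Share of nuclei (vertical axis, percent of the nuclei of a library and type) by the number of the 9 genes detected after thinning each nucleus to 1000 UMIs, for microglia and for macrophages; macrophages of NS are not drawn because they were under 20 nuclei per library. COL microglia (red) peak at 2 genes and NS microglia (blue) at 3 or 4, and macrophages at 0.

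Within COL microglia the levels differed between clusters, which is given as a description because the clusters were cut from the same nuclei. The dividing cluster held 74 and 126 COL nuclei and 1 and 3 NS nuclei. Siglech had 253 and 185 CPM in the dividing cluster and 623 and 527 CPM in the other COL microglia, and Gpr34 had 80.4 and 55.6 CPM against 146 and 133 CPM. P2ry12 had 385 and 359 CPM against 472 and 463 CPM, and P2ry13 had 17.2 and 12.1 CPM against 16.4 and 11.8 CPM. The other COL microglia alone were still below NS in each of the 9 genes, for example in Sall1 with 183 and 152 CPM against 226 and 219 CPM. With nuclei carrying UMIs of dividing-cell genes left out of the fit, 8 of the 9 genes were called lower and Sall1 was not (edgeR adjusted p = 0.25). Of all 10887 genes tested in that fit 1304 were lower. With the 9 genes kept among the clustering genes, fewer COL nuclei were named microglia, 298 and 424, beside 320 and 341 in NS. In the fit on these nuclei 8 of the 9 genes were called lower, without Sall1 (edgeR adjusted p = 0.164). Siglech had a log2 fold change of -0.89 there in place of -1.20. Of all 10977 genes tested 1398 were lower. Whether the nuclei lost were those of the dividing cluster was not tested. COL microglia above the median of their library in UMIs of 30 activation genes had fewer UMIs of the 9 genes per 1000 than those at or below it, 2.14 against 3.35 in COL replicate 1 and 2.33 against 3.07 in COL replicate 2. In NS the same split gave 5.32 against 5.54 and 5.01 against 5.25. The UMIs of both lists are drawn from the same 1000, and no test was made of this split.

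Macrophages, myeloid cells that enter from blood or line the vessels, had lower levels of these genes than microglia of the same libraries, given here as a description with no test. They were named from 12 markers, such as F13a1, Ms4a7 and Ccr2, and numbered 317 and 472 nuclei in COL and 3 and 5 in NS, so values are given for COL. P2ry12 had 48.7 and 75.6 CPM in macrophages, Siglech 28.0 and 28.0 CPM, Tmem119 10.7 and 16.1 CPM and Sall1 12 and 10.2 CPM, each below the level in microglia of the same library. Cx3cr1 had 53.3 and 136 CPM and Selplg 103 and 111 CPM, the members found most often in macrophages: a UMI of Selplg was present in 30.3% and 32.8% of macrophage nuclei and a UMI of Gpr34 in 0.631% and 3.81%. After thinning, 79.2% and 66.2% of macrophage nuclei showed none of the 9 genes. Joining macrophages with microglia left all 9 genes lower, with log2 fold changes from -1.29 for Sall1 to -2.36 for Gpr34 (edgeR), and nearly all macrophages were from COL. Of all 13764 genes tested in that fit 2083 were lower.

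**Figure D4:**
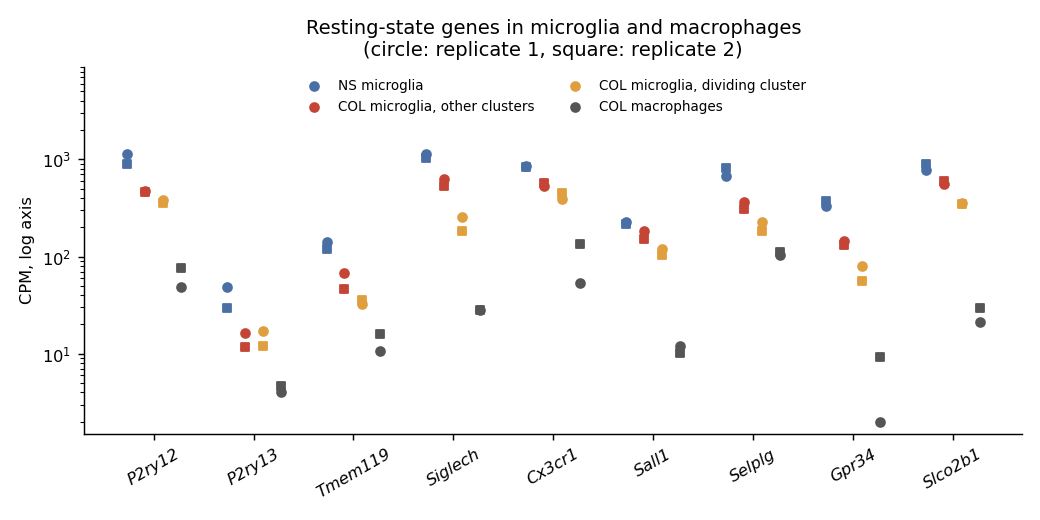
CPM of the 9 genes (vertical log axis) in NS microglia, in the COL microglia outside and inside the dividing cluster, and in COL macrophages, with a circle for replicate 1 and a square for replicate 2. In 8 genes the order falls from NS microglia to macrophages, and in P2ry13 the COL clusters of microglia lie at 11.8 to 17.2 CPM.

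Markers of other cell types were also found in the microglial nuclei. The 12 macrophage markers summed to 154 and 263 CPM in NS microglia and 620 and 722 CPM in COL microglia, and in macrophages to 3878 and 3320 CPM. A large part of the sum in microglia was Stab1, a scavenger receptor, with 144 and 185 CPM in NS and 347 and 354 CPM in COL. It had 323 and 316 CPM in COL macrophages, so Stab1 did not separate microglia from macrophages. Mrc1 did not separate them in both libraries either, with 75.3 and 76.9 CPM in COL microglia and 145 and 62.9 CPM in COL macrophages. Cd163 and Lyve1 were at 0 in the macrophages of COL replicate 2. Among the 13 microglial markers, Itgam was higher in COL macrophages, with 153 and 103 CPM against 110 and 89.5 CPM in COL microglia. Each of the others was lower in macrophages, and together the 13 summed to 2502.5 and 3025 CPM there. Several of them, Csf1r and C1qa included, are also used by other macrophages. Of the 5 macrophage markers that could be tested in microglia, 5 were higher in COL, and 6 and 2 of the 12 were at 0 in the NS libraries against 0 in both COL libraries. Leaving out every microglial nucleus with a UMI of the 11 markers other than Stab1 kept 314 and 335 NS nuclei and 268 and 333 COL nuclei. In these nuclei 8 of the 9 genes were called lower, without Sall1 (log2 fold change -0.33, edgeR adjusted p = 0.202). Of all 10988 genes tested there 1462 were lower. In that fit, chosen after seeing the data, the log2 fold change was -0.86 for Siglech, -1.06 for Selplg and -0.52 for Cx3cr1. With Stab1 among the markers, 234 and 244 NS nuclei and 135 and 157 COL nuclei were kept, and 5 of the 9 genes were called lower, without P2ry13, Cx3cr1, Sall1 and Slco2b1. Of all 8692 genes tested in that fit 929 were lower. There the log2 fold change of Siglech was -0.52 in place of -1.20, that of Selplg -0.81 in place of -1.29 and that of P2ry13 -0.68 in place of -1.43, while Tmem119 had -1.43, P2ry12 -0.99 and Gpr34 -1.24 (edgeR). Those of Cx3cr1 (-0.36), Slco2b1 (-0.37) and Sall1 (-0.16) were also nearer to 0. A nucleus is left out for 1 UMI in these fits, and COL nuclei held more UMIs. So depth and macrophage RNA cannot be told apart in which nuclei were left out. Neuron markers, 11 genes, summed to 3194 and 2880 CPM in NS microglia and 5930 and 5438 CPM in COL microglia, and 4 of the 11 were called higher and 3 lower. The 11 astrocyte markers summed to 692 and 606 CPM in NS and 299 and 337 CPM in COL, with 6 of the 8 tested lower, and the 11 OPC markers to 408 and 330 CPM against 621 and 716 CPM, with 4 of the 9 tested higher and 1 lower. The 10 oligodendrocyte markers summed to 2484 and 3150 CPM against 1302 and 2878 CPM, with 2 higher. All 9 genes were called lower when the nuclei with most neuron, oligodendrocyte and astrocyte RNA were left out, and also when nuclei scored as doublets were removed. Of all genes tested in these fits, 1589 of 11245 and 1677 of 11944 were lower. The 12 dividing-cell genes summed to 78.1 and 107 CPM in NS and 983 and 1147 CPM in COL microglia. The part of these differences in the result was not tested beyond those fits.

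In neurons, oligodendrocytes and astrocytes the 9 genes were seldom detected at equal depth. Microglia held 41.8% and 39.1% of all UMIs of the 9 genes in the NS libraries and 57.5% and 54.0% in the COL libraries, and neurons, the named type with the most UMIs per nucleus, held 28.9% and 33.2% against 12.1% and 16.0%. With each nucleus named by its own marker score, the part in microglia was 49.6% and 45.5% in NS and 65.0% and 61.1% in COL. After thinning, a neuron showed 0.0568 and 0.077 of the 9 genes on average in NS, an oligodendrocyte 0.0748 and 0.0802, and an astrocyte 0.079 and 0.11, against more than 3 in NS microglia. T and NK cells of COL, which carry the P-selectin ligand, had Selplg in 51.8% and 54.4% of their 56 and 79 nuclei, and Siglech in 1.79% and 1.27%. After thinning, 69.6% and 70.9% of the T and NK nuclei showed none of the 9 genes, against 79.2% and 66.2% of COL macrophages.

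P2ry12 was the member seen most in neurons. It had 33.3 and 42.1 CPM in NS neurons and 8.07 and 19.1 CPM in COL neurons (log2 fold change -1.36 ± 0.358; edgeR adjusted p = 0.102, DESeq2 adjusted p = 0.00725), while Siglech had 1.28 and 2.84 CPM in NS neurons and 2.12 and 4.06 CPM in COL neurons. P2ry12 had 98.2 and 85.6 UMIs per 100 UMIs of Siglech in NS microglia and 2595 and 1483 per 100 in NS neurons, so that the genes were not in the same ratio in both types. Most other members were also higher relative to Siglech in NS neurons than in NS microglia, for example Cx3cr1 with 851 and 476 per 100 against 73.7 and 79.4. Med12l, in which P2ry12 lies, had 228 and 235 CPM in NS neurons and 291 and 282 CPM in COL neurons, with both COL libraries above both NS libraries. In oligodendrocytes Sall1 had 33.5 and 28.8 CPM in NS and 21.8 and 24.7 CPM in COL (log2 fold change -0.34, edgeR adjusted p = 0.202). Its ratio there was 915 and 689 UMIs per 100 UMIs of Siglech in NS, against 19.7 and 21.0 in NS microglia.

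In the other cell types 4 calls were made. In oligodendrocyte precursor cells (OPC), where 18.8% of all genes tested were called, 10.4% lower and 8.4% higher, P2ry12 was lower (29.4 and 41.3 CPM in NS, 13.2 and 16.4 CPM in COL; log2 fold change -1.21 ± 0.283, edgeR adjusted p = 0.0104). Siglech was higher in OPC (4.75 and 2.52 CPM against 17.9 and 8.94 CPM; edgeR adjusted p = 0.0254), and so was Slco2b1 (4.75 and 4.53 CPM against 16.1 and 11.9 CPM; edgeR adjusted p = 0.0188). These calls rest on few molecules. Siglech had 10 and 5 UMIs in NS and 30 and 24 in COL, in 13 and 11 COL nuclei. Slco2b1 had 10 and 9 against 27 and 32 UMIs. With nuclei scored as doublets removed, a fit chosen after seeing the data, Siglech was too low in OPC to be tested and Slco2b1 did not pass (log2 fold change 0.74, edgeR adjusted p = 0.275). In the same fit P2ry12 was still lower (-1.44, adjusted p = 0.0111) and Gpr34 was lower as well (-1.74, adjusted p = 0.0342). In oligodendrocytes, where 22.3% of all genes tested were called, 12.3% lower and 10.0% higher, Slco2b1 had 2.71 and 1.69 CPM in NS and 4.66 and 7.39 CPM in COL (edgeR adjusted p = 0.0239), and it also passed with doublets removed (edgeR adjusted p = 0.0266). In neurons edgeR called 0 of 9 members and 0 of 23220 genes, with 2 members and 6650 genes at an unadjusted p under 0.05, and DESeq2 called 2 members and 2424 genes. In astrocytes, where 16.9% of all genes tested were called, 9.01% lower and 7.87% higher, edgeR called 0 of the 5 members that could be tested, with 1 at an unadjusted p under 0.05, and DESeq2 called 0. With DESeq2 the 3 calls in OPC were lost and the call in oligodendrocytes was kept. Without NS replicate 2 edgeR made 0 calls in these types, and without COL replicate 2 it made 8, in fits where the lone library of a group is assumed to vary like the other group.

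**Figure D5:**
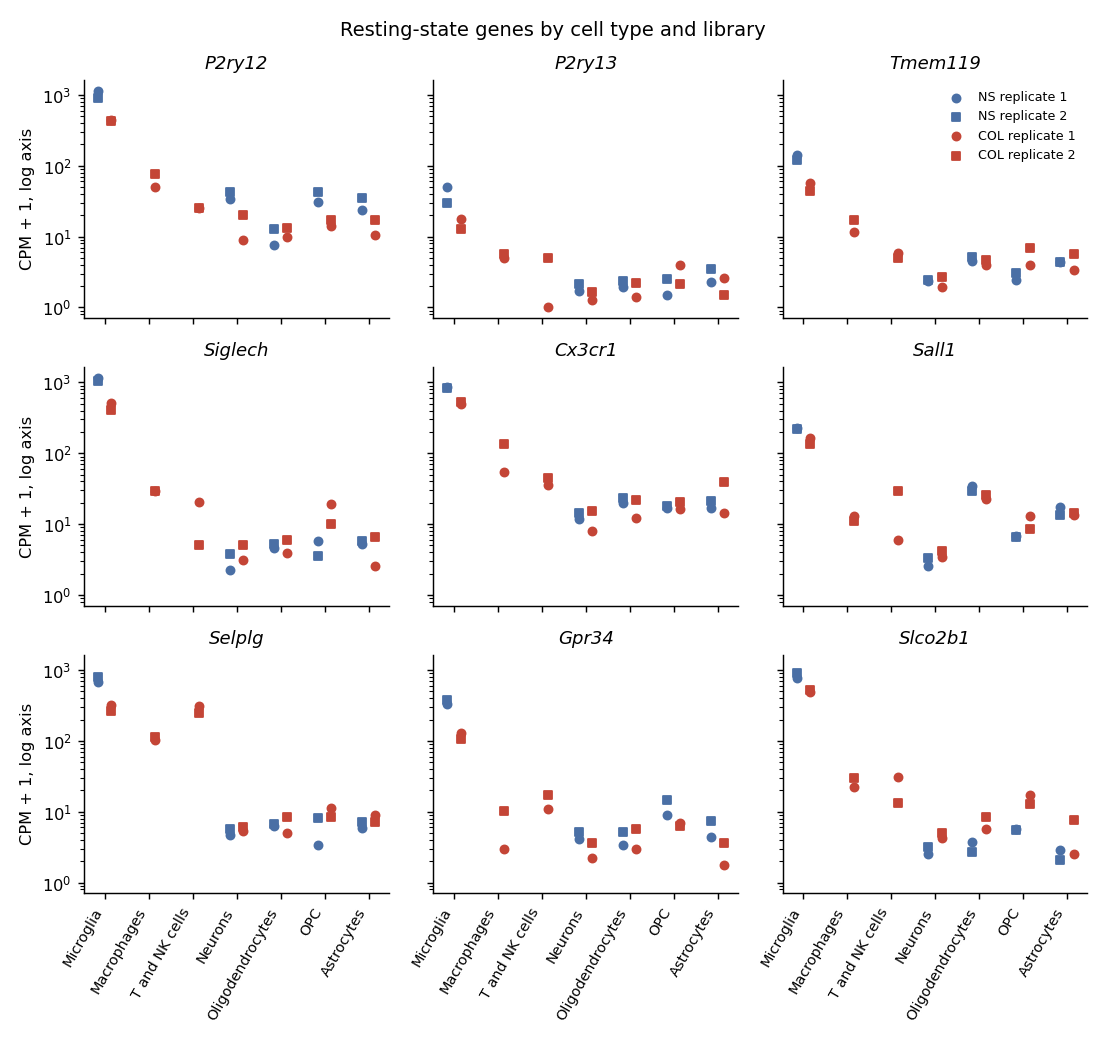
CPM + 1 (vertical log axis) of each gene in 7 cell types, with a point per library holding at least 20 nuclei of the type, NS in blue, COL in red, circles for replicate 1 and squares for replicate 2. Microglia are highest in each panel, T and NK cells come next for Selplg, and P2ry12 in neurons, OPC and astrocytes is lower in COL than in NS.

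Other genes of the resting state were mostly lower as well, relative to all UMIs. Of 29 further homeostatic genes tested, 20 were lower in COL microglia, 1 was higher and 8 did not pass, with a median log2 fold change of -0.63, where 14.4% of all genes tested were lower and 14.2% higher. Some of them, such as Csf1r and C1qa, are also among the markers that named the microglia. The number called lower was 8 by the marker score of each nucleus, 8 without macrophage-marker nuclei and 1 on the per-nucleus scale. Cst3, an inhibitor of cysteine proteases, had 929 and 1582 CPM in NS and 218 and 289 CPM in COL (log2 fold change -2.26 ± 0.233, edgeR adjusted p = 4.52e-05). Whether this Cst3 RNA is of the microglia or of other cells, such as astrocytes, was not tested. Crybb1, a crystallin gene, Ltc4s, which makes leukotriene C4, and Gpr183, an oxysterol receptor, were also lower, with log2 fold changes of -1.54, -1.39 and -1.16. Fcrls, an Fc receptor-like protein, was higher (287 and 242 CPM against 356 and 406 CPM; log2 fold change 0.58 ± 0.154, edgeR adjusted p = 0.0144). Without NS replicate 2 the count of lower genes was 8, and without NS replicate 1 it was 13.

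Activation genes went the other way. Of 28 tested, 16 were higher, against 14.2% of all genes tested, 1 was lower and 11 did not pass, with a median log2 fold change of 1.29, also with the 2 genes that had no UMI in NS set at their lower bound. Gpnmb, a glycoprotein of lipid-laden phagocytes, had no UMI in NS microglia and 42.5 and 110 CPM in COL microglia, at least 41.3-fold higher against a floor of 3 UMIs over the NS group. Ch25h, which makes an oxysterol, likewise had no UMI in NS and was at least 6.45-fold higher. Spp1 (osteopontin) had 1.35 and 8.36 CPM in NS and 101 and 241 CPM in COL (log2 fold change 5.19 ± 0.584, edgeR adjusted p = 7.37e-05), and Lgals3 (galectin 3) had 1 UMI in NS and 263 UMIs in COL, a ratio of 83.5 in CPM with a 95% counting interval from 14.9 to 3310. Fth1, ferritin heavy chain, was lower (735 and 1077 CPM against 176 and 460 CPM; log2 fold change -1.46, edgeR adjusted p = 0.00519). Gpnmb and other genes of this list are also known from macrophages, where Gpnmb had 960 and 1100.5 CPM. With microglial nuclei carrying a UMI of the macrophage markers left out 15 of the list were called higher without Stab1 among those markers, and 7 with it. Of all genes tested in these fits, 1367 of 10988 and 891 of 8692 were higher.

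Of the TGF-beta pathway and the transcription factors of microglial identity, 29 genes were tested, 8 were lower and 4 higher, with a median log2 fold change of -0.16. Of all genes tested 14.4% were lower and 14.2% higher, so the number higher was near the background. The receptor Tgfbr1 had 2234 and 2288 CPM in NS and 1255 and 1106 CPM in COL (log2 fold change -0.89 ± 0.146, edgeR adjusted p = 0.000804), and the factors Ets1 (-0.95), Mef2c (-0.85) and Mef2a (-0.77) were lower. The ligand gene Tgfb1 was lower in microglia (183 and 230 CPM against 120 and 132 CPM; edgeR adjusted p = 0.0139), while Tgfbr2 (log2 fold change 0.16, edgeR adjusted p = 0.47) and Smad3 (0.27, adjusted p = 0.243) did not pass. Arid5b (202 and 192 CPM against 598 and 729 CPM; log2 fold change 1.80), Runx1 (0.70) and Nrros (0.43), which presents latent TGF-beta 1, were higher, and Klf2 was too, with 2 UMIs in NS and 43 in COL, a ratio of 6.82 with a 95% counting interval from 1.78 to 58.2.

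Among the ligands and partners of the 9 genes, 13 of 20 could be tested in microglia, 3 were lower and 3 higher, beside 14.4% lower and 14.2% higher of all genes tested. The lists share genes. Entpd1 and Csf1r are also counted among the homeostatic genes and Csf1 among the activation genes. Mef2a, Mef2c, Spi1, Irf8 and Bhlhe41 are in both the homeostatic and the TGF-beta list, and Tyrobp is in both the activation and the partner list. Entpd1 (CD39), which degrades ATP and ADP, had 698 and 783 CPM in NS and 452 and 318 CPM in COL (log2 fold change -0.90 ± 0.181, edgeR adjusted p = 0.00296), and Csf1r, the receptor that microglia need to survive, had 930 and 966 CPM against 539 and 651 CPM. Cx3cl1 was lower in microglia as well (61.9 and 51.5 CPM against 30.5 and 32.8 CPM; log2 fold change -0.79 ± 0.252, edgeR adjusted p = 0.0331), but its NS level there was like that in NS neurons given below, and whether this RNA is of the microglia was not tested. The Csf1r ligand gene Csf1 was higher in microglia (16.2 and 18.1 CPM against 61.5 and 127 CPM; log2 fold change 2.52 ± 0.387, edgeR adjusted p = 0.000546). Abhd12 (0.98), which degrades lysophosphatidylserine, the lipid that Gpr34 binds, and the potassium channel gene Kcnk13 (0.65) were higher. In neurons, the fractalkine gene Cx3cl1 had 59.7 and 57.3 CPM in NS and 50.1 and 50.5 CPM in COL (log2 fold change -0.06 ± 0.129, edgeR adjusted p = 0.761), and Il34, the other ligand of Csf1r, had 18.6 and 15.9 CPM against 10.4 and 17.0 CPM (log2 fold change -0.20 ± 0.215, edgeR adjusted p = 0.567).

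Across the 24 sums of a library and a cell type, the genes whose log2 level (CPM, pseudocount 1) followed the mean of the 9 genes most closely included Gm34589 (Pearson r = 0.966), Csf1r (0.965), Tubgcp5 (0.964) and Numb (0.962). The 9 genes themselves had r between 0.856 for Sall1 and 0.986 for Cx3cr1. Each of them is part of that mean, so a high r is built in and cannot be set against those of the other genes. The sums share libraries, microglia set most of the range, and the values are a description with no test.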

How the data were processed

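Nuclei of mouse thalamus were measured in 2 NS and 2 COL libraries. The deposited values are UMI counts for each gene in each nucleus, made by the authors with Cell Ranger 1.2.0 on mm10 per their processing notes and filtered by them only as Cell Ranger does; whether strand or introns were used is not given in the sources used here. The filter their methods state, over 50 genes and under 5% mitochondrial UMIs, left 32291 nuclei. These were clustered with Seurat 5.3.0 (5000 variable genes without the 9 genes described, 15 PCs, resolution 0.8), and a cluster was named where at least 3 markers of a type, each found in at least 10% of nuclei, led by a score of 0.5. Clusters that failed this stayed mixed or unnamed, among them some with neuronal markers, and no doublets were removed; simulated doublets were found in 65.0% to 87.5% of cases. The rule was set with the clusters in view.

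UMI counts were summed per library and type and tested with edgeR 4.0.16 (quasi-likelihood, TMM, filterByExpr, Benjamini-Hochberg, threshold 0.05), SE being the log2 fold change over the root of F. DESeq2 1.42.0 was an alternative. Fits without 1 library take the spread from the other group and assume that the lone library varies like it. On simulated counts for COL against NS in microglia (11951 genes), edgeR found 98.0% of 4-fold and 47.0% of 2-fold changes, with 2 false calls. DESeq2 found 89% and 23%, with 0 false calls. The simulation changed 200 genes, drawn only from genes above a minimum number of UMIs, and gave every gene the same dispersion. In the data 3461 genes were called. The rates of the simulation may therefore not hold for the data, least of all for genes with few UMIs. Libraries were not paired by replicate number in the main fit. Deviations from the group means had r = 0.0851 between libraries with the same number. With 2 libraries per group these deviations mirror each other, so the value cannot decide whether the numbers pair the libraries. The genes described and the gene lists were chosen with earlier results of these data known. All 9 genes are named; from each other list up to 4 called genes per direction by size, Cx3cl1 and Il34 in neurons, and the 5 genes most like the 9, of which 1 is not reported here; overlapping genes, Tgfb1, Tgfbr2, Smad3 and Csf1r were added after their values were seen. Intervals of counts cover counting error only.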

Additional observations from a re-analysis of the deposited data

Results flagged for a closer look

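The difference between COL and NS was compared between microglia and each other type by an interaction term (edgeR's quasi-likelihood test, library as a block, Benjamini-Hochberg over all genes of the fit). The values are the log2 fold change in the other type minus that in microglia, for members that could be tested within both types. For Siglech with neurons the SE of this fit was 0.236, while it was 0.498 within neurons alone and 0.157 within microglia. Within neurons alone edgeR called 0 of 23220 genes. The adjusted p values of this fit may therefore overstate the evidence from 2 libraries per group. With neurons it was 1.94 for Siglech (adjusted p = 5.13e-14), 1.78 for Slco2b1 (2.74e-12), 1.57 for Selplg (1.36e-11), 1.37 for Tmem119 (0.00116), 1.2 for Sall1 (1.58e-05) and 0.75 for Gpr34 (0.0183), and P2ry12 (-0.29, adjusted p = 0.492), Cx3cr1 (0.51, 0.0911) and P2ry13 (0.56, 0.704) did not pass, where 2154 of 22285 genes did. With OPC it was 3.12 for Siglech (8.62e-07), 2.33 for Slco2b1 (2.55e-05), 2.30 for Selplg (0.000174), 1.38 for Sall1 (0.0164) and 0.87 for Cx3cr1 (0.04), while P2ry12 (0.05, 0.956) and Gpr34 (0.75, 0.291) did not pass, where 1276 of 14846 genes did.

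With oligodendrocytes the difference was 2.18 for Slco2b1 (adjusted p = 8.69e-06), 1.59 for Gpr34 (0.00304), 1.34 for Selplg (0.00152), 1.30 for P2ry12 (0.00126), 1.2 for Siglech (0.00855) and 1.12 for Tmem119 (0.0383) in the same edgeR test, while Cx3cr1 (0.28, 0.542), Sall1 (0.11, 0.846) and P2ry13 (0.86, 0.583) did not pass, where 1381 of 17452 genes did. With astrocytes it was 1.66 for Selplg (0.00749) and 1.28 for Cx3cr1 (0.00294), while P2ry12 (0.14, 0.892), Siglech (1.13, 0.257) and Sall1 (0.44, 0.505) did not pass, where 1024 of 14902 genes did. Tmem119 and P2ry13 in OPC, and P2ry13, Tmem119, Gpr34 and Slco2b1 in astrocytes, were too low to be tested within those types and are left out. The increases of Siglech and Slco2b1 within OPC were not called with doublets removed, and the differences from microglia were not fitted without doublets. Each difference that passed has the sign of a smaller decrease, or an increase, outside microglia, and outside microglia each rests on levels under 40 CPM. Whether these UMIs are of the named cells or RNA of other cells was not tested.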

How the results depend on the processing

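Over 20 other ways of processing the microglia no member changed sign, and the count of members called lower stayed between 6 and 9, except that it was 5 with nuclei carrying macrophage-marker UMIs left out (8 when Stab1 was not counted as a marker). P2ry12, Tmem119, Siglech, Selplg and Gpr34 passed in each of these 20. None of the 20 was on the per-nucleus scale, where 3 members changed sign. With the replicate block 9 members and 3704 genes were called. The microglia were the same nuclei at resolutions 0.4 and 1.2, so those fits are no independent check, and P2ry13 could not be fitted after thinning to 1000 UMIs.

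The number of genes called, 3461 (1741 lower, 1720 higher), was 1809 with DESeq2, 1820 without the macrophage-marker nuclei, 1718 after thinning and 2084 to 3713 with a library left out, the lowest without NS replicate 1 and 2122 without NS replicate 2. The 20 other homeostatic genes called lower became 8 by the marker score of each nucleus, 13 without dividing-list nuclei, 8 without macrophage-marker nuclei and, with a library left out, 8 (NS replicate 2) to 19, with 13 without NS replicate 1. The 16 activated genes called higher became 7 without macrophage-marker nuclei and 13 to 18 with a library left out. Members lower numbered 6 to 9, and calls in other types 0 to 8, with a library left out, and the rise of the microglia share was 2.98 to 5.49 points.

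The fits on the per-nucleus and marker-list scales, the fit that spares Stab1, and the repeats for the gene lists and for other types, were chosen after seeing the data. The per-nucleus scale gave 7770 genes called (195 lower, 7575 higher), 1 member lower, 1 other homeostatic gene lower, and reversed Cx3cr1 (0.45), Sall1 (0.58) and Slco2b1 (0.44). Without thinning, the shares of microglia with a UMI reversed for Cx3cr1 (4.67 points higher in COL), Sall1 (9.98) and Slco2b1 (1.16). The cause of these changes was not tested, except that unthinned shares were taken at unequal depths.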

Other observations

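Within microglia the 9 genes did not keep the same ratio to each other. For every 100 UMIs of Siglech, microglia held 98.2 and 85.6 UMIs of P2ry12 in NS and 87.2 and 104.5 in COL, so that P2ry12 overlapped between the groups. Cx3cr1 had 73.7 and 79.4 in NS and 96.4 and 129 in COL, Slco2b1 had 67.4 and 86.0 against 96.9 and 126, and Sall1 had 19.7 and 21.0 against 32 and 33.0, with both COL libraries above both NS libraries in the last 3. Siglech itself was lower in COL and ranked 1228 of 12078 genes tested, counted from the largest decrease. Most genes tested therefore rose relative to Siglech, and such a rise is not particular to these 3. Gpr34 had 29.1 and 36.1 against 24.7 and 26.0. In COL macrophages Selplg had 369 and 396 UMIs for every 100 of Siglech, and Cx3cr1 had 191 and 485. These ratios were taken after the values were seen, and no test was made.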
